A study of Mus musculus with 8 samples.

Results

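The 10 genes described here are Fbxo32, Trim63, Cblb, Klf15, Sesn1, Ddit4, Eif4ebp1, Foxo1, Foxo3 and Mstn, which belong to the programme by which FOXO transcription factors direct protein loss and growth arrest in muscle. They were chosen by name for that shared biology, with earlier results of these data known, as were the gene lists used below. Shares of these genes set beside the share of all genes are therefore descriptions and no independent test. Each gene was read from the brightest, by its mean on the 8 arrays, of the probes whose RefSeq accession maps to it. All 10 have a probe and all 10 were well above background on all 8 arrays, so that 10 of the 25353 genes tested are described. Both groups were whisker follicles, the large hair follicles of the muzzle, taken from female ApcMin/+ mice. These mice carry 1 mutant copy of Apc, whose product helps to degrade beta-catenin, so the vehicle group carries the mutation too. In the E7386 group (n = 4 arrays) the compound was given orally at 30 mg/kg in 2 doses per day, over 4 cycles that each had 5 days of dosing and 2 days of rest, from the age of 8 weeks. The vehicle group (n = 4 arrays) has no dose in its labels. Follicles were taken 6 h after the last dose. E7386 is known as a small molecule directed at the interaction of beta-catenin with the coactivator CBP.

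FOXO factors are held in the cytoplasm when insulin or IGF-1 activates the kinase Akt, and they enter the nucleus and switch on their targets when that signal falls, in fasting, or under glucocorticoids. In skeletal muscle their best known targets encode ubiquitin ligases that mark muscle proteins for the proteasome, together with autophagy genes and brakes on the growth kinase mTORC1. Hair follicles of the muzzle sit among small striated muscles that move the whiskers, and FOXO factors also act in follicle epithelium and in most other tissues.

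All values are log2 signals from which the array's own 75th percentile was subtracted, so that 0 is the level of that percentile and 1 unit is a doubling. A difference is E7386 minus vehicle, and a gene is said to have risen or fallen where its Benjamini-Hochberg adjusted p from limma, taken over all 25353 genes, was under 0.05. Whether each array stands for its own mouse or for a pool is not stated in the labels, so the p-values cover the spread of these 8 samples and that spread may be technical. Vehicle arrays filled row 1 of the slide and E7386 arrays row 2, so row and treatment cannot be told apart. Vehicle arrays had 62.2% to 64.7% of their spots well above background, E7386 arrays 61.5% to 61.9%. In follicle RNA of this kind, fewer cells of a type and less RNA per cell cannot be told apart. All 13 hair follicle markers tested were detected on all 8 arrays, and none had an adjusted p under 0.05 in limma. Their mean level was 4.96 to 5.64 with vehicle and 5.39 to 5.65 with E7386. For 10 of the 13 the mean was higher with E7386, against 52% of all genes. Their differences ran from -0.07 to 0.58, with a median of 0.05.

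Muscle RNA was present in the follicles and its amount varied strongly between arrays. The muscle signal, the mean of Acta1 (skeletal actin), Ckm (muscle creatine kinase), Mylpf (a fast myosin light chain) and Tnnt3 (fast troponin T), was 0.40, 3.07, 3.65 and 3.84 on vehicle arrays 1 to 4 and 0.73, 1.56, 3.86 and 3.97 on E7386 arrays 1 to 4. Vehicle array 1 and E7386 arrays 1 and 2 were thus low and the other 5 arrays high, with a gap of 1.51 between the sets and an 11.9-fold range overall. The group means were 2.74 ± 1.60 (SD, n = 4) with vehicle and 2.53 ± 1.64 (SD, n = 4) with E7386, a difference of -0.21 (exact two-sided permutation test, p = 1, where 0.0286 is the smallest value possible). Each of 20 skeletal muscle markers had the same 3 arrays as its lowest, and none of the 20 passed the test between groups. Muscle content therefore differed more within the groups than between them, and each result on the 10 genes is given with and without it. Because the arrays fall into 2 separate sets, no correlation with the muscle signal is given, and the slopes on the muscle signal printed here are fitted across the same 2 sets.

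Of the 10 genes, 1 rose with E7386, Cblb, against 1.12% of all genes called in either direction and, by direction, 0.753% called higher and 0.367% called lower. At an unadjusted p under 0.05 there were 6 of the 10, all of them higher, against 15.2% of all genes in either direction and 7.47% in the higher one. The groups of arrays did not overlap for 4 of the 10, Cblb, Fbxo32, Klf15 and Sesn1, all higher with E7386, against 10.5% of all genes and 4.82% in that direction. The mean was higher with E7386 for 9 of the 10, against 52% of all genes, and the median difference of the 10 was 0.36, against 0.01 for all genes. Scaling each array to its median in place of the 75th percentile moved all genes by -0.08 and left 52.3% of the called genes on the higher side in place of 67.3%, with Cblb still called.

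**Figure D1:**
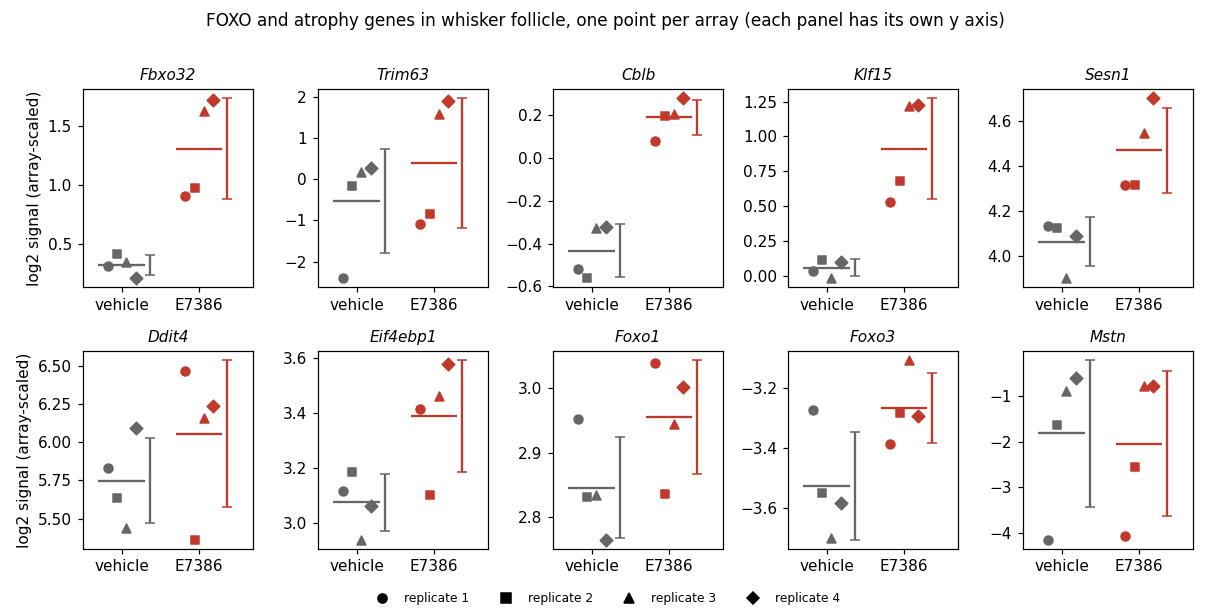
Log2 signal of each of the 10 genes on each array (vertical axes, scaled to the array's 75th percentile and drawn separately for each gene) for vehicle in grey and E7386 in red, with the mean as a horizontal line, the SD as a bar beside the points and the replicate number as the symbol. Cblb, Fbxo32, Klf15 and Sesn1 have all 4 E7386 arrays above all 4 vehicle arrays, while Trim63 and Mstn spread over more than 2.6 units within each group.

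The ubiquitin ligases of the programme are Fbxo32, Trim63 and Cblb. Cblb encodes Cbl-b, a ligase known for degrading the insulin receptor substrate IRS-1 in unloaded muscle and for restraining T cells. Its signal was -0.52, -0.56, -0.33 and -0.32 on vehicle arrays 1 to 4 and 0.08, 0.20, 0.21 and 0.28 on E7386 arrays 1 to 4. The 2 groups were separated by more than the spread inside either of them, with the high and low muscle arrays side by side in both. Cblb rose by 0.62 (SE 0.09, 95% interval 0.43 to 0.82), a 1.54-fold difference (limma, adjusted p = 0.0187, higher on 4 of 4 E7386 arrays). The 3 named genes whose values over the 8 arrays followed Cblb most closely, out of 16117 genes compared, were Cdc14b, a phosphatase (Pearson r = 0.993), Ezh1, a histone methyltransferase (r = 0.992), and Tbc1d17, a Rab GTPase regulator (r = 0.991). These correlations describe 8 arrays that share the same split between groups. Limits of the Cblb call lie in the probe and in single arrays: a second, dimmer probe, detected on 7 arrays, gave 0.31 with overlapping groups, and the call was lost when the probes were averaged. It was also lost without vehicle array 1 or 2 (adjusted p = 0.053 and 0.0543) and without E7386 array 2, 3 or 4 (adjusted p = 0.057, 0.0775 and 0.0686 in limma), and without the 3 low muscle arrays together (0.65, adjusted p = 0.135).

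Fbxo32 encodes atrogin-1, the F-box protein that gives an SCF ubiquitin ligase its targets in wasting muscle, among them MyoD and the translation factor eIF3f. Its signal was 0.31, 0.41, 0.35 and 0.21 on vehicle arrays and 0.91, 0.97, 1.63 and 1.72 on E7386 arrays. Vehicle arrays lay within 0.20 of one another although their muscle signal spanned 3.44, and E7386 arrays 3 and 4, the pair with high muscle signal, were the highest. The group means were 0.32 ± 0.08 and 1.31 ± 0.43 (SD, n = 4 each), and the difference of 0.99 (SE 0.20, 95% interval 0.54 to 1.44) was 1.98-fold. It did not pass the threshold over all genes (limma, adjusted p = 0.0647), where it ranked 386th by p.

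Trim63 encodes MuRF1, the RING-finger ligase that tags myosin heavy chain and other sarcomere proteins and is made almost wholly by striated muscle. Its signal was -2.40, -0.17, 0.17 and 0.26 on vehicle arrays and -1.10, -0.84, 1.59 and 1.90 on E7386 arrays. The groups overlapped, and in each group the arrays with low muscle signal were the lowest. As measured, the difference was 0.92 (SE 0.87, 95% interval -1.08 to 2.93) and did not pass (limma, adjusted p = 0.67). A second, dimmer probe gave 1.03.

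Set against the muscle signal of its own array, Trim63 no longer overlapped between groups. Trim63 minus the muscle signal was -2.80, -3.25, -3.48 and -3.57 on vehicle arrays and -1.82, -2.40, -2.27 and -2.07 on E7386 arrays. Every E7386 array lay above every vehicle array, and the spread inside a group fell to 0.35 (SD) with vehicle and 0.25 with E7386. The difference was 1.13 (exact two-sided permutation test, p = 0.0286, the smallest value that 4 against 4 arrays can give, and 1 of 10 such tests made). The limma fit over all genes on that scale called 0 of the 25353 genes and had 40 at an unadjusted p under 0.05. Subtraction adds the spread of the muscle signal to genes that do not follow muscle. The fit gave each of the 10 genes the same SE, 1.17. The smaller spread of Trim63 therefore did not count, and its difference of 1.13 could not pass there.

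On the scale that subtracts the muscle signal, 12 of the 25353 genes (0.0473%) did not overlap between groups, 8 of them higher with E7386 (0.0316%). Subtraction makes genes that do not follow muscle overlap, so these shares are no background for a gene that does. Trim63 was 1 of the 8, and the others, named after their values were seen, were Pdk4 (3.04), Abra (2.08), Nmrk2 (1.31), Slc25a34 (0.91), Ky (0.56), Asb11 (0.46) and Asb5 (0.39), with the difference between groups in brackets. Pdk4 encodes a kinase that shuts off pyruvate oxidation, and Nmrk2 a nicotinamide riboside kinase of muscle. None of the 16 skeletal muscle markers outside the muscle signal was among the 12.

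A fit with the muscle signal as a second term, with a common slope for both groups, gave a narrower error for the muscle-dependent genes. In it Trim63 was 1.11 higher with E7386 (SE 0.15, limma, adjusted p = 0.0217) and increased by 0.87 for each unit of muscle signal. Fbxo32 was 1.02 higher (SE 0.16, adjusted p = 0.0304), with a common slope of 0.13 per unit of muscle signal. Its vehicle arrays stayed flat over the muscle signal and its E7386 arrays climbed, so that slope describes neither group alone. Cblb was 0.63 higher (SE 0.07, adjusted p = 0.0135) and increased by 0.05 per unit. With Klf15, described next, 4 of the 10 genes passed in this fit, against 2.27% of all genes in either direction and 1.26% in the higher one. None of the 16 muscle markers that are not part of the muscle signal passed in it, with differences from -0.25 to 0.43. Among the 3 arrays with low muscle signal, where 1 vehicle array meets 2 with E7386, the difference was 1.43 for Trim63, 0.63 for Fbxo32 and 0.66 for Cblb. Among the 5 with high muscle signal, 3 vehicle and 2 E7386, it was 1.66, 1.35 and 0.65. These sets are not matched for muscle, since the muscle signal was itself 0.75 higher with E7386 in the low set and 0.39 higher in the high set, and Mstn differed by 0.84 and 0.26 in them.

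**Figure D2:**
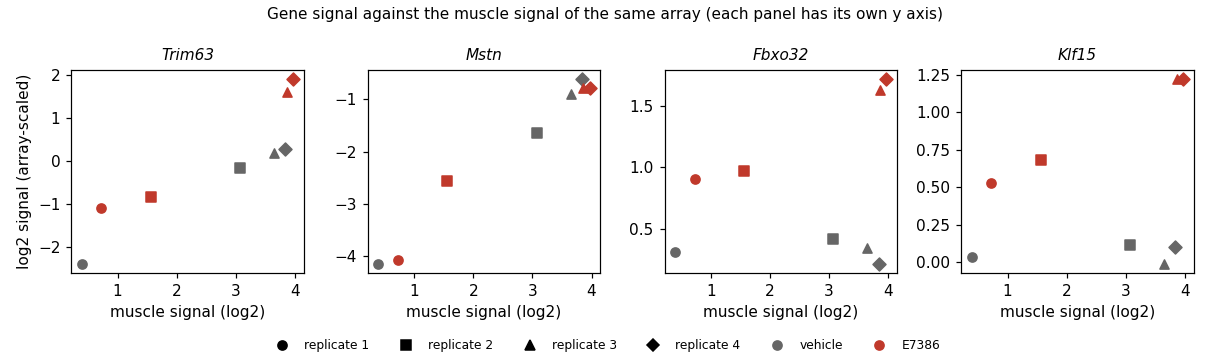
Log2 signal of Trim63, Mstn, Fbxo32 and Klf15 (vertical axes, drawn separately for each gene) against the muscle signal of the same array in log2 units (horizontal axes), with vehicle in grey, E7386 in red and the replicate number as the symbol. Trim63 climbs with the muscle signal in both groups. Its E7386 arrays 1, 3 and 4 lie above the vehicle arrays of like muscle signal, and E7386 array 2 has no such vehicle array. The vehicle points of Fbxo32 and Klf15 stay flat, and the vehicle and E7386 points of Mstn form 1 common line.

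Among the 8 genes with a start region to read, Trim63 was the one that held a FOXO core motif. Fbxo32 and Eif4ebp1 had no such region and were not searched. The Klf15 and Cblb regions, and 1 of those of Sesn1, lie before a start inside the gene and not before its outermost start. RefSeq windows of 250 bases before the start were available on GRCm38.p6 for 8 of the 10 genes (9 windows), and they were searched on both strands for the FOXO core GTAAACA, its shorter form TAAACA, the insulin response motif CAAAACA, the glucocorticoid receptor palindrome GNACANNNTGTNC and its single arm AGAACA. The Trim63 window, upstream of the gene on the forward strand of chromosome 4, is shown because the palindrome and the FOXO core stand next to each other in it (capitals). The Mstn window, on the forward strand of chromosome 1, is shown as the other muscle gene of the set, and none of these motifs was found in it.
Trim63, chr4:134314870-134315119: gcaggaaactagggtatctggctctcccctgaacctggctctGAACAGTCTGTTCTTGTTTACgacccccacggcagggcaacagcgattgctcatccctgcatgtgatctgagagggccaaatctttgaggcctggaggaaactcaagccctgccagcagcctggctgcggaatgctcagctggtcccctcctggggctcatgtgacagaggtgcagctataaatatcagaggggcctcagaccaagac
Mstn, chr1:53061390-53061639: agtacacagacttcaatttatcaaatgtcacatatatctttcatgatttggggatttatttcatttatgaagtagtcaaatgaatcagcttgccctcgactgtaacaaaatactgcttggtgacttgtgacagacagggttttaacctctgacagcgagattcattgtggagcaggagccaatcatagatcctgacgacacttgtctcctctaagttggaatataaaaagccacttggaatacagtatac
In the Trim63 window the palindrome runs from -208 to -196 relative to the start and the FOXO core from -194 to -188, on the reverse strand. The shorter FOXO form lies inside the core, and the single arm, on the reverse strand, overlaps the palindrome. Among all 32851 windows of this length, 3.17% held the FOXO core and 0.387% the palindrome, and 3 windows (0.00913%) held both. The shorter FOXO form was in 12%, the insulin response motif in 5.56% and the single arm in 16.1% of the windows. A match describes letters in the window and not binding.

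Klf15, the mTORC1 brakes Sesn1 and Ddit4, and the translation brake Eif4ebp1 stand downstream of FOXO factors or of glucocorticoids. Klf15 encodes a Krüppel-like factor that glucocorticoids induce and that turns on the breakdown of branched-chain amino acids. Its signal was 0.04, 0.12, -0.01 and 0.10 on vehicle arrays and 0.53, 0.68, 1.22 and 1.22 on E7386 arrays. As with Fbxo32, the vehicle arrays were close together (a range of 0.13), the groups did not overlap and E7386 arrays 3 and 4 were the highest. The difference of 0.85 (SE 0.17, 95% interval 0.47 to 1.24, 1.81-fold) did not pass over all genes (limma, adjusted p = 0.063) and passed with the muscle signal as a second term (0.88, SE 0.13, adjusted p = 0.0248). It was 0.57 among the low muscle arrays and 1.15 among the high ones. Both Fbxo32 and Klf15 also passed in limma when the 3 low muscle arrays were left out, with 1.35 (adjusted p = 0.0324) and 1.15 (adjusted p = 0.0334). That fit sets 3 vehicle arrays against E7386 arrays 3 and 4, the highest for both genes. With 1 array left out, each passed in 1 of 8 fits, without E7386 array 1 (adjusted p = 0.0478 and 0.0399). In the other fits the adjusted p reached 0.172 for Fbxo32 and 0.162 for Klf15.

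Sesn1 encodes sestrin 1, a stress protein that restrains mTORC1. Its signal was 4.13, 4.12, 3.90 and 4.09 on vehicle arrays and 4.31, 4.31, 4.54 and 4.70 on E7386 arrays, without overlap. The difference was 0.41 (SE 0.11, 95% interval 0.15 to 0.66), did not pass (limma, adjusted p = 0.137), and was 0.41 with the muscle term as well (adjusted p = 0.0984). Eif4ebp1 encodes 4E-BP1, which binds the cap-binding factor eIF4E and holds back translation. Its signal was 3.12, 3.19, 2.94 and 3.06 on vehicle arrays and 3.42, 3.10, 3.46 and 3.58 on E7386 arrays. E7386 array 2 lay among the vehicle arrays and the other 3 above them, for a difference of 0.31 (SE 0.11, 95% interval 0.05 to 0.58, limma, adjusted p = 0.251). Ddit4 encodes REDD1, an inhibitor of mTORC1 induced by glucocorticoids and low oxygen. Its signal was 5.83, 5.63, 5.44 and 6.09 on vehicle arrays and 6.47, 5.36, 6.16 and 6.24 on E7386 arrays. E7386 array 2 was the lowest of all 8 and array 1 the highest, so that the difference of 0.31 (SE 0.25, 95% interval -0.26 to 0.88) was within the spread (limma, adjusted p = 0.607).

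The transcription factors Foxo1 and Foxo3 did not pass the test. Foxo1, the family member most tied to fasting and atrophy, had 2.95, 2.83, 2.83 and 2.76 on vehicle arrays and 3.04, 2.84, 2.95 and 3.00 on E7386 arrays. The groups overlapped and the difference was 0.11 (SE 0.08, 95% interval -0.07 to 0.29, limma, adjusted p = 0.548), with 0.04 from a second probe. Foxo3, the other main driver of the atrophy ligases, had -3.27, -3.55, -3.70 and -3.58 on vehicle arrays and -3.39, -3.28, -3.11 and -3.29 on E7386 arrays. Vehicle array 1 lay among the E7386 arrays, and the difference of 0.26 (SE 0.11, 95% interval 0.01 to 0.51) did not pass (limma, adjusted p = 0.311). For Foxo1 the interval excludes a rise as large as the 0.62 of Cblb.

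Mstn encodes myostatin, the secreted inhibitor of muscle growth, and it alone of the 10 had a lower mean with E7386. Its signal was -4.15, -1.63, -0.89 and -0.61 on vehicle arrays and -4.07, -2.55, -0.79 and -0.78 on E7386 arrays. In both groups the order of the arrays was that of the muscle signal, and the difference of -0.22 (SE 0.97, limma, adjusted p = 0.949) was far inside the spread. Mstn minus the muscle signal was -4.54, -4.71, -4.54 and -4.44 on vehicle arrays and -4.79, -4.11, -4.65 and -4.75 on E7386 arrays, so the within-group SD fell from 1.61 to 0.11 with vehicle and from 1.58 to 0.31 with E7386. On that scale the difference was -0.02 (exact two-sided permutation test, p = 0.971). In the fit with the muscle term Mstn increased by 0.98 per unit of muscle signal and the treatment difference was -0.02 (SE 0.16). Mstn and Trim63 thus both followed the muscle signal, and on the scale that subtracts it Trim63 differed between groups without overlap while Mstn overlapped. The difference between the pair of genes was not itself tested.

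**Figure D3:**
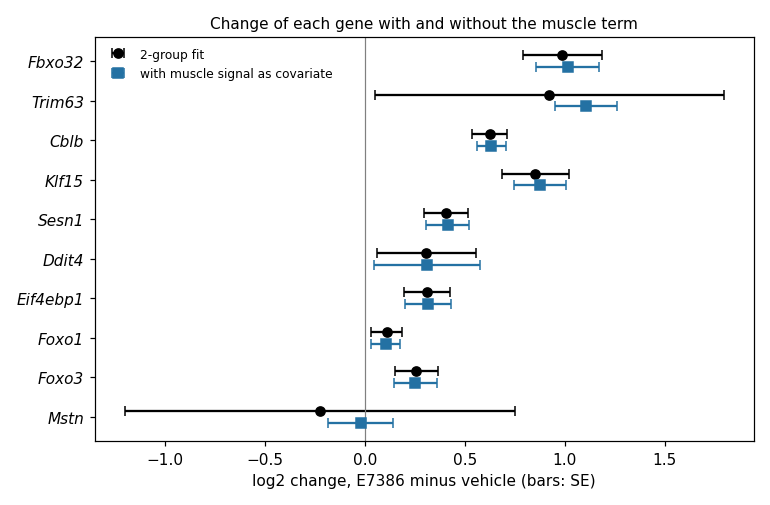
Log2 difference of each gene, E7386 minus vehicle (horizontal axis), with its SE as a bar, from the fit on the groups alone (black circles) and with the muscle signal as a second term (blue squares). The bars of Trim63 and Mstn shrink with the muscle term, from 0.87 to 0.15 and from 0.97 to 0.16, and the other 8 genes hardly move.

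Setting the remaining genes against the muscle signal by subtraction left 8 of them overlapping between groups. The differences on that scale were 1.20 for Fbxo32 (exact permutation test, p = 0.257), 1.06 for Klf15 (p = 0.257) and 0.83 for Cblb (p = 0.4). They were 0.62 for Sesn1 (p = 0.657), 0.52 for Ddit4 (p = 0.543) and 0.52 for Eif4ebp1 (p = 0.714) in the same exact permutation test, and 0.47 for Foxo3 (p = 0.8) and 0.32 for Foxo1 (p = 0.914). Subtraction puts the muscle signal's own range of 3.57 into genes that did not carry it, since the muscle slope of these 8 genes lay between -0.03 for Foxo3 and 0.13 for Fbxo32.

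Other targets and members of the FOXO family, make a list of 26 genes of which Igfbp1 was not tested. Of the 25 tested, 4 rose and 1 fell, a share of 20% called against 1.12% of all genes, of whose calls 67.3% were higher. Txnip, the thioredoxin inhibitor that FOXO factors and glucose induce, was 3.63, 3.61, 3.74 and 3.82 on vehicle arrays and 5.17, 4.77, 5.37 and 5.54 on E7386 arrays. It rose by 1.51 (SE 0.16, 2.85-fold, limma, adjusted p = 0.00674) and passed in all 22 alternative settings. Irs2, the adaptor of the insulin receptor whose transcription FOXO1 drives, rose by 0.87 (SE 0.15, adjusted p = 0.0423). Map1lc3b and Gabarapl1, which encode the ATG8-type proteins that coat autophagosomes, rose by 0.51 (SE 0.09) and 0.46 (SE 0.08), both with an adjusted p of 0.0465. Each of these 4 genes had all E7386 arrays above all vehicle arrays, whatever their muscle signal.

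Foxo6, a family member expressed in few tissues, was the one that fell. It was 2.92, 2.98, 3.18 and 2.98 on vehicle arrays and 2.33, 2.34, 2.48 and 2.00 on E7386 arrays, a difference of -0.73 (SE 0.11, limma, adjusted p = 0.0299). Of the whole list, 13 of 25 genes were under an unadjusted p of 0.05, against 15.2% of all genes, 11 did not overlap between groups, against 10.5%, and the median difference was 0.25 against 0.01. Pdk4, Pik3ip1, a brake on PI3 kinase, and Insr, the insulin receptor, were named after their values were seen. They did not overlap between groups and did not pass, with 2.83 for Pdk4 (SE 0.72, limma, adjusted p = 0.121), 0.77 for Pik3ip1 (SE 0.14, adjusted p = 0.0536) and 0.62 for Insr (SE 0.13, adjusted p = 0.0695). With the muscle term 7 of the 25 rose and 1 fell, where 2.27% of all genes were called. Without the 3 low muscle arrays 2 rose and 0 fell, where 0.269% of all genes were called, and with arrays scaled to their median 2 rose and 1 fell, where 1.02% were. With 1 array left out, Irs2 passed in 1 of 8 fits (without E7386 array 1, adjusted p = 0.0122), and Foxo6, Gabarapl1 and Map1lc3b in none.

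**Figure D4:**
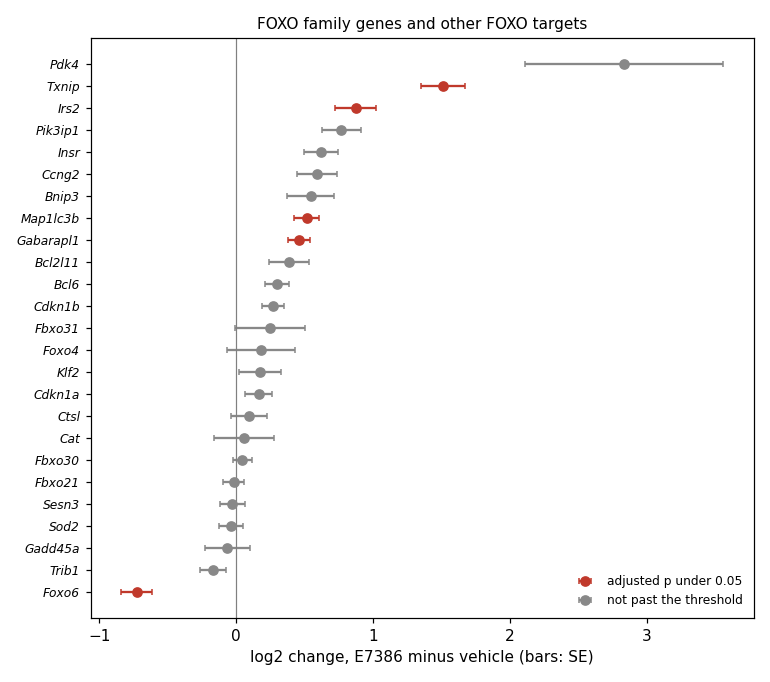
Log2 difference, E7386 minus vehicle (horizontal axis), of 25 other FOXO family members and targets, with the SE as a bar, in red where the limma adjusted p was under 0.05 and grey otherwise. Txnip, Irs2, Map1lc3b and Gabarapl1 lie to the right in red and Foxo6 to the left, and Pdk4 has the highest value, 2.83, with a wide bar.

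The partners of atrogin-1 and MuRF1 in protein breakdown had no member past the threshold. Of 20 other ligases, SCF subunits, ubiquitin genes and proteasome subunits, 0 passed in limma, 3 were under an unadjusted p of 0.05 (15% against 15.2% of all genes), and the median difference was -0.05. Those 3 were Ubr2, an N-end rule ligase (0.25, SE 0.08, adjusted p = 0.177), Usp19, a deubiquitinase (0.17, SE 0.06, adjusted p = 0.271), and Skp1, the SCF adaptor that binds atrogin-1 (-0.18, SE 0.08, adjusted p = 0.308).

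In the insulin, Akt and mTORC1 pathway 1 of 24 genes rose (4.17%, against 0.753% of all genes called higher), Igf1r, the IGF-1 receptor. It was 1.93, 1.97, 1.88 and 1.98 on vehicle arrays and 2.28, 2.37, 2.41 and 2.26 on E7386 arrays, a rise of 0.39 (SE 0.07, limma, adjusted p = 0.0423) that passed in 0 of the 8 fits with 1 array left out. The median difference of the 24 genes was 0.07, and it was 0.00 when arrays were scaled to their median. With that scaling 0 of the 24 genes were called, so Igf1r did not pass.

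The myostatin and activin pathway had 0 of 16 genes called in limma and 4 under an unadjusted p of 0.05 (25% against 15.2% of all genes), with 1.12% of all genes called. Fst, which encodes follistatin, the extracellular trap of activins and myostatin, came nearest. It was 2.53, 2.02, 2.54 and 2.45 on vehicle arrays and 2.95, 3.17, 3.19 and 3.06 on E7386 arrays, without overlap, for a difference of 0.71 (SE 0.13, limma, adjusted p = 0.0508). Acvr2b, the receptor of myostatin, was 0.36 higher (SE 0.13, adjusted p = 0.235), and Wfikkn1, a myostatin-binding protease inhibitor, 0.40 higher (SE 0.14, adjusted p = 0.235), and neither passed. Gdf11 and Tll2 were not tested.

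Among 15 genes of KLF15 action and branched-chain amino acid handling, 4 rose and 0 fell (26.7% against 1.12% of all genes called), and the median difference was 0.28. Slc43a1, a transporter of branched-chain amino acids, was -2.30, -2.06, -2.03 and -2.21 on vehicle arrays and -0.62, -0.90, -0.18 and -0.26 on E7386 arrays, a rise of 1.66 (SE 0.16, limma, adjusted p = 0.00471) that held in all 22 alternatives. Bcat1, the cytosolic transaminase of these amino acids, rose by 1.76 (SE 0.30, adjusted p = 0.0381) and was detected on 7 arrays. Its size depended on the background correction and the probe: it was 0.63 with normexp on the median signals (adjusted p = 0.0327) and 0.75 with probes averaged, where it did not pass (adjusted p = 0.156). Klf9, a Krüppel-like factor that glucocorticoids also induce, rose by 0.93 (SE 0.16, adjusted p = 0.0459), and Glul, glutamine synthetase, by 0.57 (SE 0.09, adjusted p = 0.0339). With 1 array left out, Bcat1 passed only without vehicle array 2 (adjusted p = 0.0156), Glul only without E7386 array 1 (adjusted p = 0.0449) and Klf9 in none of the 8 fits. With the muscle term 4 of the 15 rose (2.27% of all genes called), and with arrays scaled to their median 3 (1.02%). Without the 3 low muscle arrays 1 rose (0.269%), and with the replicate number as a block 1 (0.233%).

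Reference genes of the glucocorticoid receptor, which acts on Fbxo32, Trim63, Klf15 and Ddit4 in muscle, were read on the same arrays. Of 11 such genes 3 rose and 0 fell (27.3% against 1.12% of all genes called), with a median difference of 0.45 against 0.01. Fkbp5, a chaperone that feeds back on the receptor, was 2.49, 2.41, 1.64 and 1.00 on vehicle arrays and 3.72, 3.52, 3.79 and 4.09 on E7386 arrays. It rose by 1.89 (SE 0.33, 3.72-fold, limma, adjusted p = 0.0409). Zbtb16, a zinc finger repressor, rose by 1.76 (SE 0.21, adjusted p = 0.0094), and Tsc22d3, the glucocorticoid-induced leucine zipper, by 0.82 (SE 0.11, adjusted p = 0.0154). Nr3c1, the gene of the receptor itself, was named after its values were seen. It was 3.44, 3.58, 3.74 and 3.65 on vehicle arrays and 3.09, 3.29, 3.22 and 3.20 on E7386 arrays, without overlap, and its difference of -0.40 (SE 0.09) did not pass (limma, adjusted p = 0.078). With the muscle term it was -0.39 (SE 0.07, adjusted p = 0.0486). With the muscle term 4 of the 11 rose and 1 fell, where 2.27% of all genes were called. Without the 3 low muscle arrays 0 were called (0.269% of all genes), and with arrays scaled to their median 2 rose (1.02%). With the replicate number as a block 0 were called (0.233%). Zbtb16 passed in each of the 8 fits with 1 array left out, Tsc22d3 in 5 and Fkbp5 in 2. Their part in the higher values of Fbxo32, Klf15 and Cblb was not tested.

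Markers of other cells in the follicle were read beside these genes. Of 7 satellite cell and denervation genes tested, 0 passed in limma and 1 was under an unadjusted p of 0.05, Runx1, a factor induced in denervated muscle (0.28, SE 0.10, adjusted p = 0.229). Pax7, Myf5 and Chrng were not tested. Of 8 fat cell markers 0 passed and 1 was under an unadjusted p of 0.05, with a mean level of -2.04 to -0.51 with vehicle and -1.51 to 0.02 with E7386. None of 5 blood and 6 immune cell markers was under an unadjusted p of 0.05. The part of these cells in the results was not tested.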

How the data were processed

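Total RNA of 8 follicle samples was labelled with Cy3 and hybridised to 1-colour Agilent arrays, per the labels' protocols. The scanner files hold intensity values produced by the authors in Agilent's Feature Extraction program, whose version is 11.5.1.1 per the file headers and 11 per the submitters' processing notes, and the background-corrected processed signal was used. The authors' deposited value table holds log2 values with the same sorted values in every column (median 5.31), and its normalization method is not given in the sources used here.

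Each log2 value had its array's 75th percentile over 55681 mouse probes subtracted. Spots marked non-uniform were set to missing, and spots of a probe were averaged. Accessions of 27509 probes matched a RefSeq table of GRCm38.p6. A gene entered the test if its brightest probe passed the scanner's background test on 3 or more arrays in either group. The test was lmFit and eBayes of limma 3.58.1 (R 4.3.3) with Benjamini-Hochberg adjustment, and single values were compared by exact permutation. It was tested on simulated data with independent noise for each gene and array, which lacked the muscle variation that genes share on these arrays. Precision is limited by there being 4 arrays a group. The 10 genes and the lists were chosen with earlier results of these data known. Named from each list other than those of cell markers were the genes past the threshold, or else up to 3 with the smallest p. The cell marker lists did not follow this rule, and most of their genes are not named. Also named were the 3 genes most correlated with each called gene of the 10. Alternatives covered background correction, scaling, filters, probes, the variance model, the muscle signal and each array.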

Additional observations from a re-analysis of the deposited data

Results flagged for a closer look

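In 5 of 102 sets of 4 arrays examined, 1 array stood far from the other 3 of its group, where chance gives about 1 in 20. Vehicle array 1, the array with the lowest muscle signal, was the low one for Trim63 (-2.40, with the next at -0.17), for Mylpf (-3.52, next at -0.84) and for the muscle marker Myl1 (4.12, next at 6.53). Fst was low on vehicle array 2 (2.02, next at 2.45), and Klf9 on vehicle array 3 (2.11, next at 2.35).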

How the results depend on the processing

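The count of genes called was 284, and of the 10 genes 1 was called. Under normexp on the median signals 3 of the 10 passed (Fbxo32, Klf15 and Cblb), as they did with a trended, robust variance and with a threshold of 0.1 (689 genes). With probes averaged 0 passed. Without a detection filter 153 genes passed, with the muscle signal as a covariate 576 (4 of the 10), and without the 3 arrays of lowest muscle signal 67 (2 of the 10). With 1 array left out, between 93 and 246 genes and between 0 and 3 of the 10 passed. Scaling arrays to their median moved all genes by -0.08 and left 52.3% of calls higher with E7386, against 67.3%. Correlations of same-numbered arrays, taken on each gene's deviations from its group mean, were 0.49, -0.17, 0.29 and 0.18. Vehicle arrays 1 and 3 matched the E7386 array of their own number best, and vehicle arrays 2 and 4 did not. These values do not settle whether the replicate numbers pair the arrays. A fit with the replicate number as a block called 59 genes and 0 of the 10. The muscle signal difference, -0.21, was 0.39 without the 3 low arrays and -0.99 to 0.39 with 1 array left out.

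Cblb passed in 14 of 22 alternatives, Fbxo32 and Klf15 in 5, Trim63 in 1 and the other 6 genes in 0. Of the 10 differences only that of Mstn changed sign, to 0.26 without the 3 low arrays and over a range of -1.001 to 0.45 with 1 array left out. With the muscle signal subtracted, none of the 10 was called by limma under any alternative run. On that scale Mstn was 0.11 under normexp and -0.17 to 0.058 with 1 array left out, and Foxo1 was -0.23 without the 3 low arrays. With 1 array left out Foxo1 ranged from -0.31 to 1.14, Foxo3 from -0.093 to 1.33, Ddit4 from -0.22 to 1.33 and Eif4ebp1 from -0.087 to 1.32. The cause of these differences was not tested. Normexp on the mean signal, planned as an alternative, was not run because the scanner files used here hold median signals. Removing population outlier spots, chosen after seeing the data, called the same number of genes.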
